A study of Homo sapiens with 9 samples.

Results

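The genes described here were 10 of the 26364 listed in the count files, chosen by name: the transcription factors ZEB1, ZEB2, SNAI1, SNAI2, TWIST1, TWIST2, PRRX1 and TCF4, the epithelial transcription factor GRHL2, and VIM, which encodes the intermediate filament protein vimentin. All 10 were listed in all 9 files, and 7 of them had enough reads for a test. RNA-seq had been run on MDA-MB-231, a human breast cancer cell line of the triple-negative type that is commonly used as a mesenchymal, invasive model. All cells carried a stably expressed short hairpin RNA (shRNA): shNT was a non-targeting control, and shGLO1#1 and shGLO1#2 were 2 clones silenced for GLO1, the main enzyme that detoxifies methylglyoxal, a reactive by-product of glycolysis. Each of the 3 groups had 3 replicate libraries, none received a further agent, and each shRNA was represented by 1 clone, so that the hairpin and the clone cannot be told apart. The comparisons ask whether cells depleted of GLO1 carried other levels of these regulators than the control cells, and whether the clones differed from each other.

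Libraries held 15314238 to 18495576 reads assigned to genes, and values are given as CPM, reads of a gene scaled to a common library size (TMM). GLO1, the targeted gene, was at 312 to 323 CPM in the control libraries; shGLO1#1 had 64.2 to 65.9 CPM and shGLO1#2 had 14.0 to 15.5 CPM, levels that were 4.86-fold and 21.6-fold lower. Reads assigned to no gene made up 22.1% to 22.9% of shGLO1#1 libraries and 20.5% to 21.3% of the others; the part of this difference in the results below was not tested.

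Epithelial-mesenchymal transition (EMT) is the programme by which epithelial cells loosen their junctions, lose E-cadherin and become motile. ZEB1, ZEB2, SNAI1 (Snail) and SNAI2 (Slug) are zinc finger proteins that bind E-box motifs in genes such as CDH1, which encodes E-cadherin, and repress them. TWIST1 and TWIST2 are basic helix-loop-helix factors, TCF4 (also called E2-2, not the Wnt effector TCF7L2) is an E protein of the same class, and PRRX1 is a homeobox factor of mesenchymal tissue. GRHL2 maintains the epithelial state and is in mutual repression with ZEB1. Vimentin is the filament protein most used to mark mesenchymal cells.

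The factors did not move as a block. TCF4 and PRRX1, both scarce in control cells, were higher in the GLO1-silenced clones, with the higher levels in shGLO1#2. The repressors ZEB1 and ZEB2 changed by less than 2-fold, ZEB1 in shGLO1#1 and ZEB2 in shGLO1#2. SNAI1 and SNAI2 passed no test, TWIST1 and TWIST2 had no reads, GRHL2 was near zero in the clones, and VIM was among the most abundant genes of every library. The plot of CPM by library shows each value.

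**Figure D1:**
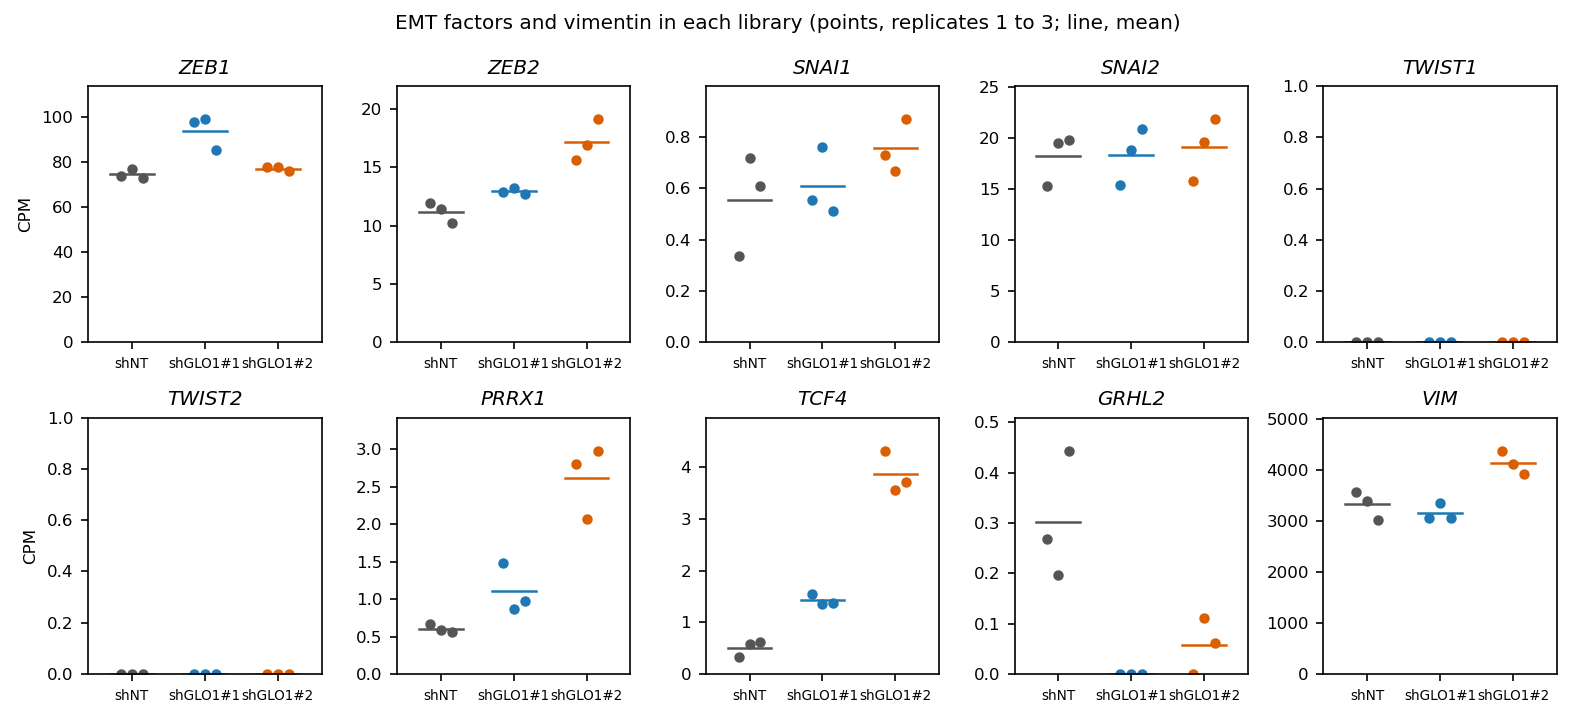
Each panel shows 1 gene, with CPM on the vertical axis (from 0, a different scale in each panel), 3 points per group for replicates 1 to 3 and a line at the group mean. TCF4 and PRRX1 rise from shNT over shGLO1#1 to shGLO1#2 with no overlap of libraries, SNAI2 overlaps in all groups, and TWIST1 and TWIST2 lie at 0 throughout.

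In order of level per exon length, VIM stood far above the factors. In shNT cells VIM had 1780 ± 152 CPM per kb of exon (SD, n = 3), ZEB1 11.6 ± 0.321, SNAI2 7.50 ± 1.04, ZEB2 0.836 ± 0.0654, SNAI1 0.329 ± 0.116, PRRX1 0.0780 ± 0.00786, GRHL2 0.0571 ± 0.0239 and TCF4 0.0400 ± 0.0119. The libraries of neighbours in this order did not overlap from VIM down to PRRX1, whereas PRRX1 and GRHL2 overlapped, and so did GRHL2 and TCF4. In shGLO1#2 cells PRRX1 reached 0.338 ± 0.0622 and TCF4 0.303 ± 0.0311 CPM per kb, with overlapping libraries, below SNAI1 at 0.449 ± 0.0605. These levels use the exon length of all basic GENCODE transcripts of a gene. With the length of RefSeq-matched transcripts only, PRRX1 at 0.510 CPM per kb in shGLO1#2 stood above SNAI1 at 0.449, so the order of these neighbours depends on the transcripts counted.

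**Figure D2:**
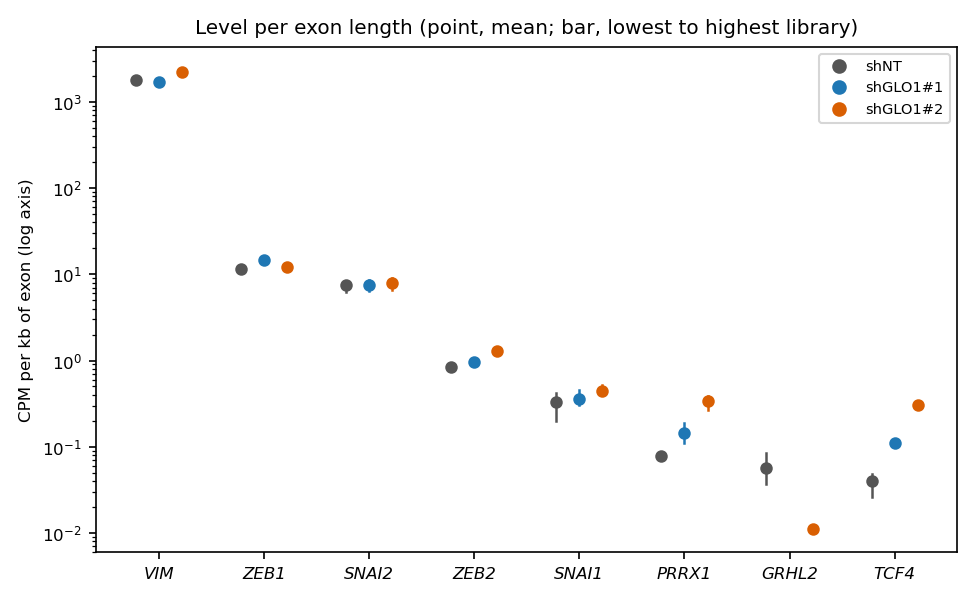
The vertical axis, which is logarithmic, gives CPM per kb of exon for the 8 genes with reads, ordered by their level in shNT; points are group means of 3 libraries and bars run from the lowest to the highest library (no bar is drawn where a library was at 0). VIM lies between 1690 and 2220 CPM per kb, ZEB1 and SNAI2 between 7.50 and 14.6, and TCF4, PRRX1 and GRHL2 differ visibly between the groups.

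A gene was called here when its adjusted p (Benjamini-Hochberg over the 13704 genes tested, edgeR quasi-likelihood test) was below 0.05 and its log2 fold change was beyond 1 in either direction. Against shNT, 1 of the 7 tested genes (TCF4) was called higher and none lower in shGLO1#1, where 5.98% of all genes tested were called higher and 2.75% lower. TCF4 and PRRX1, 2 of the 7, were called higher in shGLO1#2, where the shares over all genes were 5.09% higher and 2.59% lower. Between the clones the same 2 genes were called higher in shGLO1#2 than in shGLO1#1, beside 3.33% of all genes called higher and 3.75% lower. By adjusted p alone, 3 of the 7 were higher in shGLO1#1, where 22.6% of all genes passed as higher and 23.1% as lower. In shGLO1#2 4 of the 7 passed, all as higher, beside 18.3% higher and 19.8% lower over all genes. Between the clones 4 passed as higher and 1 as lower in shGLO1#2, beside 22.8% and 23.7%. Libraries did not overlap for 4 of the 7 genes between shNT and shGLO1#1, 4 between shNT and shGLO1#2 and 5 between the clones, where 55.9%, 47.3% and 55.4% of all genes did not. The median log2 fold change of the 7 genes was 0.21 in shGLO1#1 and 0.43 in shGLO1#2, beside 0.001 in both for all genes tested. TCF4 and PRRX1, with few reads in shNT, met the count filter through the clone libraries. GRHL2, which was highest in shNT, stayed below it. The counts and medians of the 7 genes against shNT are therefore tilted towards higher values and serve as description only. Both comparisons with shNT share the same 3 control libraries.

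**Figure D3:**
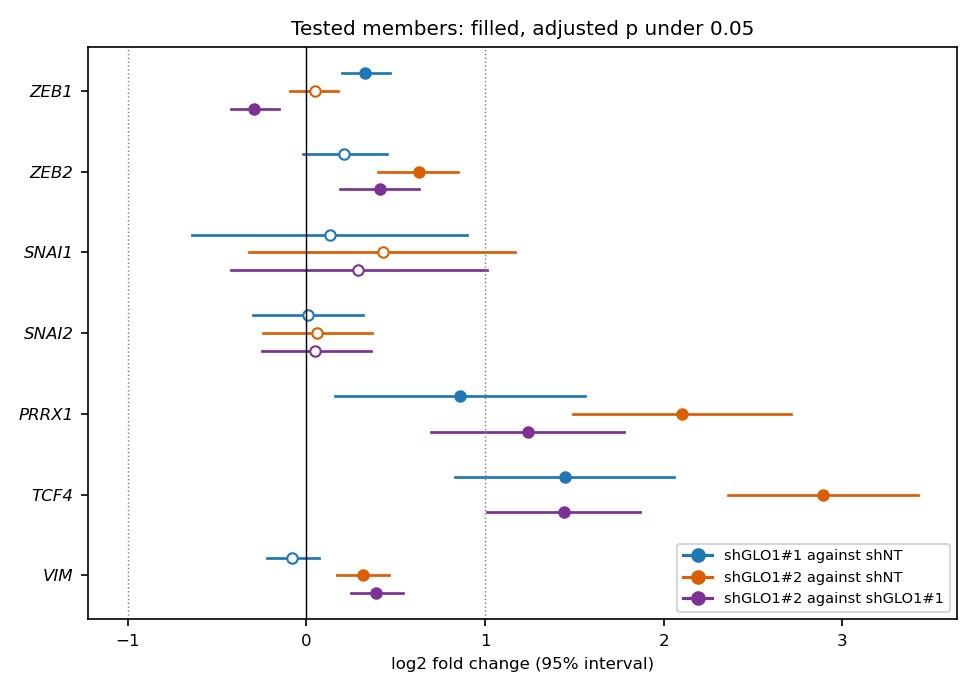
Points give the log2 fold change of the 7 tested genes in the 3 comparisons and bars their 95% intervals; filled points have an adjusted p below 0.05, and dotted lines mark a log2 fold change of 1. TCF4 and PRRX1 extend past 1 in shGLO1#2, the intervals of ZEB1, ZEB2 and VIM are narrow and below 1, and those of SNAI1 and SNAI2 all include 0.

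TCF4 showed the widest change of the 7 tested genes. E proteins such as TCF4 pair with other basic helix-loop-helix factors and can drive EMT when overexpressed in epithelial cells. TCF4 had 5, 9 and 11 reads in the shNT libraries (0.336, 0.587 and 0.609 CPM), 25, 25 and 24 in shGLO1#1 (1.54, 1.36 and 1.37 CPM) and 71, 64 and 60 in shGLO1#2 (4.32, 3.57 and 3.72 CPM). Every shGLO1#2 library was above every shGLO1#1 library, and each of these was above every control library. The log2 fold change against shNT was 1.45 ± 0.28 (SE, n = 3 against 3) in shGLO1#1, a 2.72-fold higher level with a 95% interval of 0.83 to 2.06 and an adjusted p of 9.62e-04. In shGLO1#2 it was 2.89 ± 0.25, a 7.40-fold higher level (interval 2.36 to 3.42, adjusted p = 1.12e-06). The clones themselves differed by 1.44 ± 0.20 on the log2 scale (adjusted p = 6.14e-05). With 25 reads over the 3 control libraries, the control level was 0.518 CPM with an exact Poisson interval of 0.335 to 0.764, which covers counting error only.

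PRRX1 followed the same order of groups. PRRX1 had 10, 9 and 10 reads in shNT (0.672, 0.587 and 0.554 CPM), 24, 16 and 17 in shGLO1#1 (1.48, 0.870 and 0.969 CPM) and 46, 37 and 48 in shGLO1#2 (2.80, 2.07 and 2.98 CPM). The groups did not overlap. In shGLO1#2 the log2 fold change was 2.10 ± 0.28, a 4.29-fold higher level (interval 1.49 to 2.71, adjusted p = 5.70e-05), and shGLO1#2 exceeded shGLO1#1 by 1.24 ± 0.25 (adjusted p = 0.00114). In shGLO1#1 the log2 fold change was 0.86 ± 0.33 (interval 0.16 to 1.56, adjusted p = 0.0445), below the limit for a call. That adjusted p ranged from 0.0294 to 0.187 over 14 alternative settings and stayed below 0.05 in 7 of them. It rose above 0.05 with DESeq2 (0.0965), without the count filter (0.0549), and without shNT replicate 1, 2 or 3 (0.0666, 0.0970 and 0.115) or shGLO1#1 replicate 1 or 3 (0.187 and 0.0558). Without shGLO1#1 replicate 2 the log2 fold change was 1.01, and PRRX1 was then called. PRRX2, its paralogue, had no reads in any library.

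Patterns across the 9 libraries were compared as the centred log2 of CPM plus 0.5. The genes closest to TCF4 were BMP8B, LINC01296 and LDOC1. Their root mean square differences were 0.133, 0.152 and 0.158, where the median over all tested genes was 0.898. Mean BMP8B levels were 1.06, 2.71 and 6.97 CPM in shNT, shGLO1#1 and shGLO1#2. For PRRX1 the closest were DEPDC7, SNTB1 and LINC00601, at 0.122, 0.145 and 0.154, with a median of 0.67 over all genes. SNTB1 averaged 16.5, 22.3 and 45.2 CPM in the same groups, and DEPDC7 averaged 0.0224, 0.272 and 0.999 CPM. The added 0.5 CPM flattens changes at low levels, such as those of DEPDC7. This holds for TCF4 and PRRX1 themselves, which averaged 0.511 and 0.604 CPM in shNT. A small distance does not mean equal fold changes. SNTB1 went from 16.5 CPM in shNT to 45.2 CPM in shGLO1#2, while the fitted level of PRRX1 was 4.29-fold higher there. The named genes were picked as the closest, so that their distances lie below the median by that choice. The comparison of patterns is a description over 9 libraries that share their groups.

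ZEB1 was the most abundant of the repressors. It had 73.5, 76.8 and 73.0 CPM in shNT, 97.6, 98.7 and 85.1 CPM in shGLO1#1, and 77.5, 77.5 and 75.9 CPM in shGLO1#2. All shGLO1#1 libraries were above all others, while shGLO1#2 overlapped with the control. The log2 fold change was 0.33 ± 0.06 in shGLO1#1 (1.26-fold, interval 0.20 to 0.47, adjusted p = 6.95e-04) and 0.05 in shGLO1#2 (interval -0.09 to 0.18, adjusted p = 0.59). ZEB1 was lower in shGLO1#2 than in shGLO1#1 by a log2 fold change of -0.29 (interval -0.42 to -0.15, adjusted p = 0.0021).

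ZEB2, the paralogue of ZEB1, showed the other order. It had 11.9, 11.4 and 10.2 CPM in shNT, 12.9, 13.2 and 12.7 CPM in shGLO1#1, and 15.6, 16.9 and 19.1 CPM in shGLO1#2. No groups overlapped, yet the difference of shGLO1#1 from shNT, 0.21 on the log2 scale (interval -0.02 to 0.45), had an adjusted p of 0.123. In shGLO1#2 the log2 fold change was 0.63 (1.54-fold, interval 0.40 to 0.85, adjusted p = 3.92e-04), and the clones differed by 0.41 (interval 0.19 to 0.63, adjusted p = 0.0055). For ZEB1 and ZEB2 the clone with the higher level was thus not the same, and both differences between the clones passed the test.

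ZEB1 and ZEB2 are the best known targets of the miR-200 family, microRNAs of epithelial cells that bind their 3′ UTRs and that the ZEB proteins repress in turn. The mature family members are printed to show what the ZEB transcripts share. They are RefSeq sequences (GRCh38.p14), with the seed, bases 2 to 8, in capitals. The seed sorts them into a group of 3 and a group of 2:
hsa-miR-200b-3p: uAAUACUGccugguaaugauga
hsa-miR-200c-3p: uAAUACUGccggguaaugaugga
hsa-miR-429: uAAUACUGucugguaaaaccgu
hsa-miR-200a-3p: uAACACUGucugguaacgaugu
hsa-miR-141-3p: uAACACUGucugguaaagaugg

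The bases that pair with these seeds are CAGTATT for the group of 3 and CAGTGTT for the group of 2. The longest annotated 3′ UTR of ZEB1 (2549 bases) held 6 copies of CAGTATT and 3 of CAGTGTT, and that of ZEB2 (5370 bases) held 5 and 4. At least 1 copy stood in the 3′ UTR of 15.8% and 18.2% of 19382 genes, and 3 or more copies in 0.831% and 1.02%. TCF4 held 1 and 2 copies in 5704 bases, SNAI2 held 1 and 0, and GRHL2 held 0 and 1, while SNAI1, TWIST1, TWIST2, PRRX1 and VIM held neither. These are matches of letters on the transcript strand and not measured sites. The 2 CAGTATT matches nearest to the stop codon and the nearest CAGTGTT match of each gene are printed below 5′ to 3′ in GRCh38, with the match in capitals:
ZEB1, chr10:31527618-31527640, plus strand: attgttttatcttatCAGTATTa
ZEB1, chr10:31527712-31527734, plus strand: atgctaaatccgcttCAGTATTt
ZEB1, chr10:31528031-31528053, plus strand: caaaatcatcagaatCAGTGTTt
ZEB2, chr2:144389052-144389074, minus strand: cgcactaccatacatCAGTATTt
ZEB2, chr2:144388989-144389011, minus strand: cgcactacaatgcatCAGTATTa
ZEB2, chr2:144389236-144389258, minus strand: tgcaaaaattttgtaCAGTGTTa

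The microRNA genes MIR200A, MIR200B, MIR429, MIR200C, MIR141 and MIR205 were listed at 0 in all 9 libraries. Mature microRNAs are shorter than the fragments that this RNA kit keeps, so these zeros say nothing of the mature forms. ZEB1-AS1, the antisense neighbour of ZEB1, had 4.59 to 6.85 CPM over all libraries and passed no test against shNT (adjusted p = 0.769 and 0.898).

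ZEB and SNAIL proteins bind the E-box CAGGTG, and some EMT factors act on each other's promoters. In windows of 300 bases, from 250 before to 50 after annotated RefSeq starts, CAGGTG or its reverse complement CACCTG stood in 2 of 7 ZEB1 windows. It stood in none of the 10 TCF4 windows and in none of the single windows of PRRX1, ZEB2, TWIST2 and VIM, while 20.6% of 35116 windows over all genes held it. No match says only that these letters are not in these windows.

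SNAI1 and SNAI2 passed no test. SNAI1, a short-lived protein controlled largely after transcription, had few reads: 5, 11 and 11 in shNT (0.336, 0.717 and 0.609 CPM), 9, 14 and 9 in shGLO1#1 (0.555, 0.762 and 0.513 CPM), and 12, 12 and 14 in shGLO1#2 (0.731, 0.670 and 0.869 CPM). The groups overlapped. Its log2 fold changes of 0.13 (interval -0.64 to 0.90) and 0.43 (-0.32 to 1.17) in shGLO1#1 and shGLO1#2 had adjusted p of 0.789 and 0.361, and the intervals leave room for changes near 2-fold at this depth.

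SNAI2 was measured far more precisely. It had 15.3, 19.5 and 19.8 CPM in shNT, 15.4, 18.8 and 20.9 CPM in shGLO1#1, and 15.8, 19.6 and 21.8 CPM in shGLO1#2. The library numbered 1 was the lowest and the library numbered 3 the highest in all 3 groups, so that the libraries of 1 group differed more than the group means. The log2 fold changes were 0.01 (interval -0.30 to 0.32, adjusted p = 0.96) and 0.06 (-0.24 to 0.37, adjusted p = 0.762), and the clones differed by 0.05 (-0.25 to 0.36, adjusted p = 0.784). SNAI3, the remaining SNAIL gene, had 6 to 10 reads per group.

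TWIST1 and TWIST2, which mark the mesoderm and many invasive tumours, had 0 reads in all 9 libraries. Over 150887448 reads assigned to genes, a count of 0 allows a level of up to 0.0199 CPM (3 reads, counting error only). No difference between groups could therefore be detected for either gene.

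GRHL2 was the exception among the 10 genes, with lower values in both clones in these counts. It had 4, 3 and 8 reads in shNT (0.269, 0.196 and 0.443 CPM), 0 in each shGLO1#1 library, and 0, 2 and 1 in shGLO1#2 (0, 0.112 and 0.0621 CPM). Control and clone libraries did not overlap, but the gene stayed below the count filter in the fit. Set against a floor of 3 reads over the group, the level in shGLO1#1 was 5.40-fold lower than in shNT. The counting interval of that ratio starts at 3.87 and has no upper end. In shGLO1#2 the level was 5.22-fold lower (counting interval 1.48 to 28.1). The 2-sided exact permutation test over 3 against 3 libraries gave p = 0.1 for each clone, the smallest value this design allows. Without the count filter, edgeR gave an adjusted p of 0.00181 in shGLO1#1, where GRHL2 was then called, and 0.0535 in shGLO1#2.

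The paralogues of GRHL2, named here after their values were seen in the case of GRHL3, were low as well. In the control libraries GRHL1 had 4.10, 4.17 and 2.93 CPM, with 3.27, 3.32 and 2.00 CPM in shGLO1#1 and 1.34, 1.62 and 1.18 CPM in shGLO1#2. It was lower in shGLO1#2 by a log2 fold change of -1.42 (adjusted p = 5.53e-04) and had -0.38 in shGLO1#1 (adjusted p = 0.191). GRHL3 had 17, 7 and 18 reads in shNT, 3, 4 and 13 in shGLO1#1, and 1, 2 and 1 in shGLO1#2, with log2 fold changes of -1.16 (adjusted p = 0.0663) and -3.34 (adjusted p = 0.00155).

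**Figure D4:**
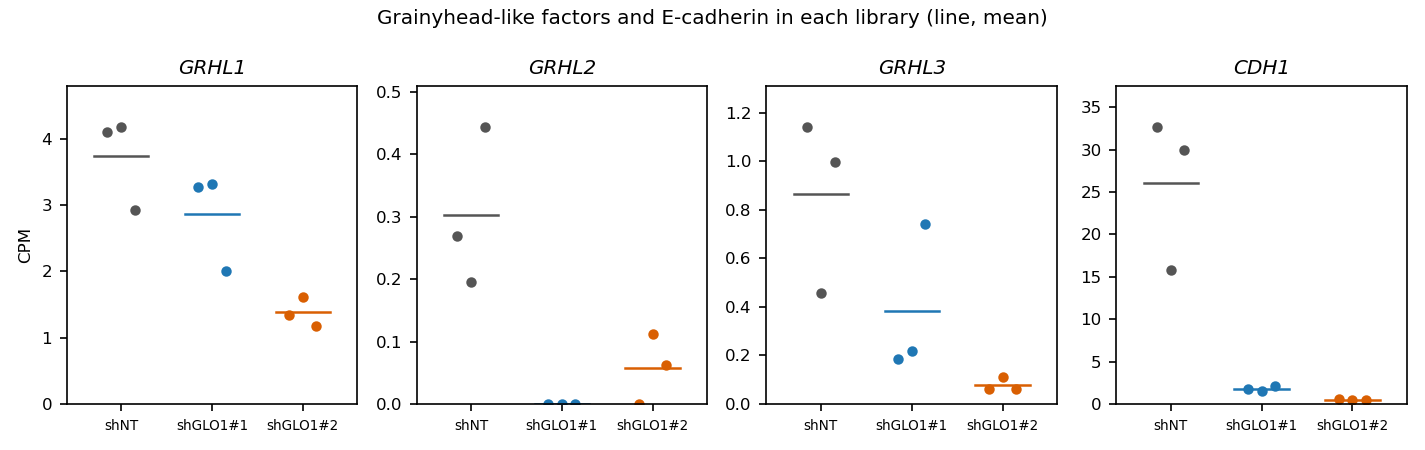
CPM (vertical axes, from 0, a scale for each panel) of GRHL1, GRHL2, GRHL3 and CDH1 in the 9 libraries, with 3 points per group and a line at the mean. All shGLO1#2 libraries lie below all shNT libraries for the 4 genes; in shGLO1#1 this holds for GRHL2 and CDH1, while GRHL1 and GRHL3 overlap with shNT.

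VIM was the 6th to 8th most abundant of all genes by reads and took 0.295% to 0.436% of the reads assigned to genes. It had 3580, 3390 and 3020 CPM in shNT, 3070, 3350 and 3060 CPM in shGLO1#1, and 4380, 4130 and 3920 CPM in shGLO1#2. All shGLO1#2 libraries were above all others, and shGLO1#1 overlapped with shNT. The log2 fold change was 0.32 ± 0.07 in shGLO1#2 (1.24-fold, interval 0.17 to 0.46, adjusted p = 0.00191) and -0.08 in shGLO1#1 (interval -0.22 to 0.07, adjusted p = 0.371). The clones differed by 0.39 (1.31-fold, interval 0.25 to 0.54, adjusted p = 3.04e-04). VIM-AS1, its antisense neighbour, was highest in shGLO1#1, with 17.2 to 19.4 CPM against 7.59 to 10.3 CPM in shNT and 7.32 to 8.88 CPM in shGLO1#2. The kit does not mark strand, so reads of an overlapping pair cannot be told apart.

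Among 15 tested genes of the other intermediate filaments and of plectin, which links filaments to junctions, 3 were called higher in shGLO1#1 and 2 in shGLO1#2, and none lower, beside 5.98% and 5.09% of all genes called higher. KRT81, a hair keratin, averaged 2.47, 5.88 and 92.3 CPM in the control and the clones #1 and #2, and NES, which encodes nestin, a partner of vimentin in mixed filaments, averaged 13.9, 54.2 and 36.9 CPM. PLEC rose by 0.69 on the log2 scale in shGLO1#2 (adjusted p = 2.32e-05). In shGLO1#1 PLEC had 0.25 (adjusted p = 0.0256, but 0.0524, 0.107 and 0.0900 without shNT replicate 1, shNT replicate 3 or shGLO1#1 replicate 2). The epithelial keratin KRT8 stood at 876 to 1190 CPM over all libraries.

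Several junction and polarity genes that these factors are known to repress were lower in both clones. CDH1 had 32.6, 15.8 and 29.9 CPM in shNT, 1.73, 1.52 and 2.17 CPM in shGLO1#1, and 0.548, 0.503 and 0.496 CPM in shGLO1#2. Its log2 fold changes were -3.85 ± 0.26 (adjusted p = 1.29e-07) and -5.64 ± 0.33 (adjusted p = 4.25e-08). The fitted changes of ZEB1, ZEB2, SNAI1 and SNAI2 were below 2-fold, though the SNAI1 interval in shGLO1#2 reached 1.17 on the log2 scale. TCF4 was 2.72-fold higher in shGLO1#1 and 7.40-fold higher in shGLO1#2. The part of any of these factors in the level of CDH1 was not tested. Of 28 tested epithelial targets, 10 were called lower in shGLO1#1 and 11 in shGLO1#2, none was called higher, beside 2.75% and 2.59% of all genes called lower, and 7 were called lower in both: C1orf106, CDH1, ESRP2, MAL2, PRSS8, SPINT1 and ST14. The median log2 fold changes of all 28 tested epithelial targets were -0.62 in shGLO1#1 and -0.69 in shGLO1#2. By adjusted p alone, 18 passed as lower in shGLO1#1 and 2 as higher, INADL (0.73) and SPINT2 (0.23), beside 23.1% and 22.6% of all genes. In shGLO1#2 19 passed as lower and none as higher, beside 19.8% and 18.3%. MAL2, a protein of apical transport, fell by 2.61 and by 2.13 on the log2 scale, and SPINT1 and ST14, an inhibitor and its membrane protease, also fell in both clones. EPCAM, an epithelial adhesion molecule, stood at 14.0 to 15.5 CPM in shNT and at 9.56 to 11.7 CPM in shGLO1#2 (log2 fold change -0.45, adjusted p = 0.004). In shGLO1#1 EPCAM was at 12.6 to 13.8 CPM and did not pass (-0.15, adjusted p = 0.263). ESRP1, an epithelial splicing factor, was at 4 to 12 reads in every library.

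Of 24 tested mesenchymal targets, shGLO1#1 had 6 called higher with 2 called lower, shGLO1#2 had 5 called higher with 2 called lower, with medians of 0.41 and 0.43. Over all genes 5.98% were called higher and 2.75% lower in shGLO1#1, and 5.09% and 2.59% in shGLO1#2. COL5A1, SPARC, TGFBI and TNC, which encode matrix proteins, were called higher in both clones, and CDH2 (N-cadherin, a usual marker of EMT) was called lower in both. SPARC stayed scarce, with 5 reads over the shNT libraries (mean 0.11 CPM) and means of 0.765 CPM in shGLO1#1 and 1.06 CPM in shGLO1#2. The control libraries had 5.91, 4.83 and 8.69 CPM of CDH2, against 0.864, 1.09 and 1.65 CPM for shGLO1#1 and 0.609, 1.23 and 0.621 CPM for shGLO1#2. FN1, which encodes fibronectin, rose by 1.41 on the log2 scale in shGLO1#1 (adjusted p = 1.25e-07) and by 0.55 in shGLO1#2 (adjusted p = 4.16e-04). CDH1 and CDH2 thus both fell, while VIM rose only in shGLO1#2 by the test, where the difference between the clones also passed.

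**Figure D5:**
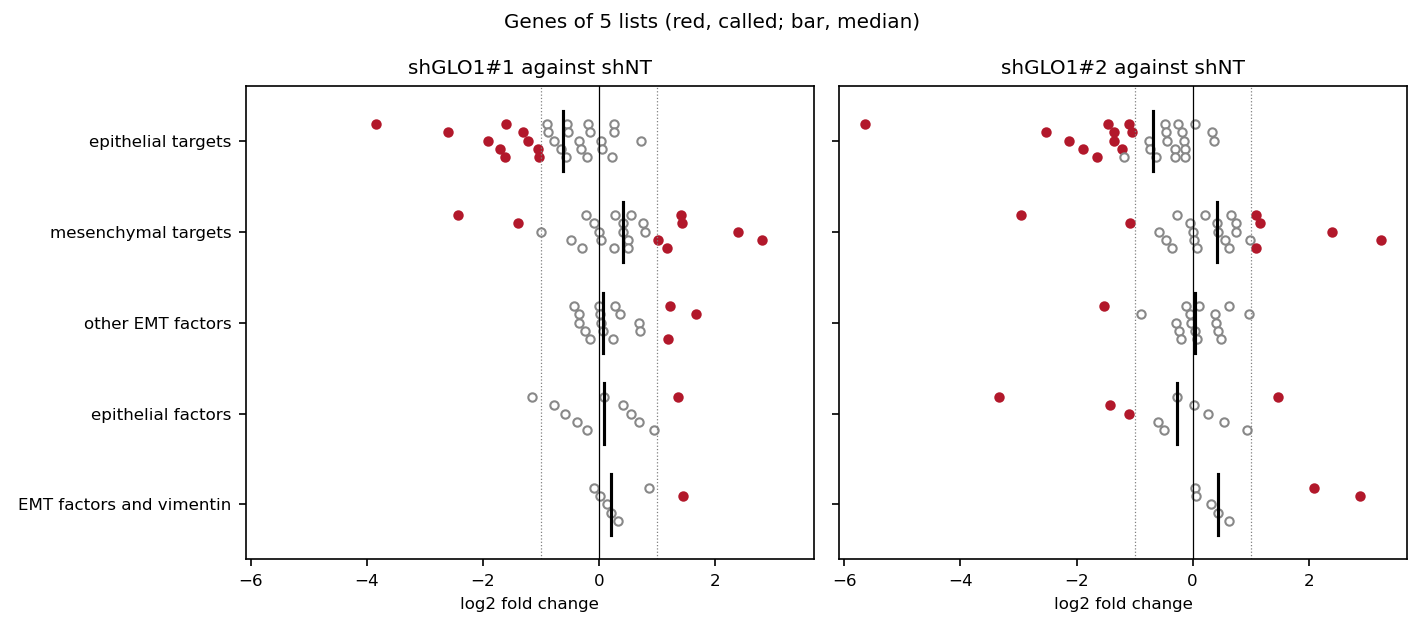
Each point is the log2 fold change of 1 tested gene against shNT (left, shGLO1#1; right, shGLO1#2), in 5 rows: epithelial targets, mesenchymal targets, other EMT factors, epithelial factors and the tested EMT factors with vimentin. Red points were called and bars mark medians, which lie at -0.62 and -0.69 for the epithelial targets and at 0.21 and 0.43 for the EMT factors and vimentin. GRHL2, lower in both clones, was below the count filter and is not drawn.

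Further factors linked to EMT were read from a list of 24, of which 17 could be tested. In shGLO1#1, genes called higher included SOX4 (log2 fold change 1.67) and HMGA2 (1.18), and none was called lower. In shGLO1#2 none was called higher and FOXQ1 was called lower (-1.53). SOX4, which had a mean of 30.6 CPM in control cells and 97.6 CPM in shGLO1#1, had 40.5 CPM in shGLO1#2. The list had medians of 0.06 and 0.04, and GSC, PRRX2 and TBX3 had no reads.

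Of the other epithelial transcription factors, 11 of 18 could be tested. In shGLO1#1 TP63 was called higher (1.36, adjusted p = 0.025, on 0.741 to 1.43 CPM). Its adjusted p rose to 0.0972, 0.0681 and 0.0892 without shNT replicate 2, shGLO1#1 replicate 2 or shGLO1#1 replicate 3, and TP63 was not tested where a mean of at least 1 CPM was asked for. In shGLO1#2 GRHL1, GRHL3 and ELF3 were called lower. OVOL1 and OVOL2, which repress ZEB1 in epithelia, had at most 2 reads per group.

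Partners and inputs of the EMT factors are given beside the same all-gene shares, 5.98% higher and 2.75% lower in shGLO1#1 and 5.09% and 2.59% in shGLO1#2. Of 6 tested E proteins and their ID inhibitors, none was called in shGLO1#1 and ID4 was called lower in shGLO1#2 (-2.65, adjusted p = 1.24e-05), while TCF3, another E protein, at 99.6 to 104 CPM by group, had log2 fold changes of 0.00 and 0.07. Of 19 corepressors, WTIP was called lower in shGLO1#2 (-1.52) and none was called in shGLO1#1. Of 16 regulators of SNAIL protein stability, USP27X, a deubiquitinase of Snail, was called higher in shGLO1#1 (1.37) and none was called in shGLO1#2. Of 27 upstream inputs, WNT5A was called higher in both clones (2.06 and 2.65), and SMAD7, the inhibitor of TGF-beta signalling, and MET, the receptor of hepatocyte growth factor, were called lower in shGLO1#2 (-1.41 and -1.32).

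The label of a mesenchymal, triple-negative line was set against markers of other cells. ESR1 and PGR, the hormone receptors, had at most 0.432 and 0.247 CPM in any library, VIM was among the leading genes, and KRT8 and CDH1 were present in shNT, so that the control cells held epithelial transcripts beside VIM, ZEB1 and SNAI2. The 9 fibroblast markers summed to 14.6 to 22.4 CPM in control libraries, 14.0 to 16.6 CPM in those of shGLO1#1 and 14.6 to 23.4 CPM in those of shGLO1#2. PDGFRA, THY1 and FAP were at 0 in shNT, and DCN and COL3A1 at 0 in shGLO1#2. LUM was called lower in both clones (-2.39 and -4.06), and PDGFRB was called higher in shGLO1#2 (1.10). The 10 leukocyte and endothelial markers summed to 14.0 to 16.7 CPM, 14.1 to 15.3 CPM and 12.3 to 16.9 CPM. PTPRC was called lower in both clones (-2.79 and -1.71) and PECAM1 higher in both (1.66 and 1.90), CSF1R higher in shGLO1#1 (1.93) and VWF higher in shGLO1#2 (2.47). Of the receptor and luminal genes, GREB1 was called higher in both clones (1.07 and 1.48) and TFF1 in shGLO1#1 (1.60). The adjusted p of GREB1 in shGLO1#1 rose to 0.0900, 0.0894 and 0.187 without shNT replicate 1, shNT replicate 3 or shGLO1#1 replicate 2. The part of these transcripts in the changes of TCF4 and PRRX1 was not tested.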

How the data were processed

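The authors sequenced total RNA of 9 MDA-MB-231 libraries (TruSeq RNA kit) and deposited raw HTSeq counts per gene symbol. The submitters' processing notes name bcl2fastq 2.17, TopHat2 2.1.1, HTSeq and hg19; annotation and strand setting: not given in the sources used here. HTSeq summary lines, 20.5% to 22.9% of reads, were left out. Genes were filtered with filterByExpr (minimum count 10, total 15), which kept 13704 of 26364, scaled by TMM and fitted together over all 9 libraries with edgeR 4.0.16 in R 4.3.3 (glmQLFit and glmQLFTest, limma 3.58.1), with Benjamini-Hochberg adjustment. The alternatives were RLE size factors, DESeq2 1.42.0, no filter, a mean of at least 1 CPM, a replicate block and leaving out each library. The fit was tested on simulated data.

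The genes, lists and tests were chosen with earlier results of these data known. Named were the 10 genes, up to 4 called genes of each list with the widest change (at least 1 CPM in a group), the 2 most abundant, CDH1, EPCAM, CDH2, FN1 and GLO1, and the 3 genes most like a called gene (log2 of CPM plus 0.5). Other list genes that the text names (those at or near 0 reads, C1orf106, COL5A1, ESRP2, GRHL3, PRSS8 and VWF) were chosen after their values were seen; a few list genes are not reported here. Same-numbered libraries of shNT and shGLO1#2 deviated together (correlations 0.28, 0.22 and 0.38) and count as paired; this comes from the data, not the labels. Those of shGLO1#1 and shNT (-0.01, 0.08 and 0.31) do not. Between the clones the correlations were 0.22, 0.07 and 0.41. The main fit had no term for the replicate number, so its tests and intervals leave any pairing out. Only the replicate block takes it in. Replicates of a group differed by more than counting noise. Labels do not say whether replicates came from separate cultures, so p-values measure the spread between these libraries. Exon lengths and 3′ UTRs came from GENCODE 29 (GRCh38; VIM had no RefSeq-matched transcript), and microRNAs and start-site windows from RefSeq (GRCh38.p14). Sequence of GRHL2 and SNAI2 is not shown. The Poisson and counting intervals and the floors cover counting error only. Intervals of log2 fold changes come from the fit and take in the spread between libraries.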

Additional observations from a re-analysis of the deposited data

Results flagged for a closer look

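Differences between the clones themselves, tested in the fit as shGLO1#2 against shGLO1#1, passed for 5 of the 10 genes (7 tested), 4 higher and 1 lower, beside 22.8% of all genes higher and 23.7% lower. They were log2 fold changes of 1.44 for TCF4, 1.24 for PRRX1, 0.41 for ZEB2, 0.39 for VIM and -0.29 for ZEB1. For ZEB1 the level in shGLO1#2 was near that of shNT, and for VIM and ZEB2 it was shGLO1#1 whose test against shNT did not pass.

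Among the genes named in the lists, and not as a full account of them, the same test called KRT81 (3.97), PDGFRB (2.10), VWF (1.94) and PTPRC (1.08) higher in shGLO1#2. Those called lower there included ID4 (-2.78), GRHL3 (-2.17), CDH1 (-1.79), SMAD7 (-1.76), LUM (-1.67), USP27X (-1.57), FOXQ1 (-1.57), SPINT1 (-1.31), TFF1 (-1.28), SOX4 (-1.27), VIM-AS1 (-1.17), CSF1R (-1.05), GRHL1 (-1.04), DSP (-1.03) and MET (-1.01). GRHL3 did not pass with DESeq2 (adjusted p = 0.051) or without shGLO1#1 replicate 3 (0.247) or shGLO1#2 replicate 1, 2 or 3 (0.0888, 0.0674 and 0.0958), and TFF1 did not pass with DESeq2 (0.0775). GLO1 itself was lower in shGLO1#2 by a log2 fold change of -2.15. The clone, its hairpin and its GLO1 level cannot be told apart.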

How the results depend on the processing

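Over 14 alternatives, 275 of 291 values of the tested genes kept their direction and their side of the threshold. The 7 that lost an adjusted p below 0.05 were all PRRX1 in shGLO1#1, and 9 changed sign, all of SNAI1 or SNAI2 with a library left out and none past the threshold. With a library left out, log2 fold changes in shGLO1#1 ranged from -0.11 to 0.34 for SNAI1, -0.10 to 0.12 for SNAI2, -0.05 to 0.17 for FOXQ1, -0.16 to 0.32 for ID4, -0.08 to 0.05 for TCF3, -0.10 to 0.09 for ID1, -0.09 to 0.17 for ZEB1-AS1 and -0.11 to 0.19 for KDR. In shGLO1#2 they ranged from -0.04 to 0.19 for SNAI2, 0.00 to 0.09 for EHF, -0.01 to 0.12 for TCF3, -0.40 to 0.08 for USP27X, -0.20 to 0.08 for ZEB1-AS1, -0.01 to 0.48 for COL1A1 and -0.01 to 0.29 for KDR. Between the clones they ranged from -0.06 to 0.17 for SNAI2, -0.15 to 0.21 for TNC (-0.01 with the replicate block), -0.02 to 0.11 for CTDSP2, -0.17 to 0.00 for HIF1A, -0.22 to 0.00 for ZEB1-AS1, -0.03 to 0.15 for KRT18, -0.26 to 0.10 for COL1A1, -0.20 to 0.43 for PECAM1, -0.01 to 0.21 for KDR and -0.08 to 0.11 for COL5A1. None of these passed the threshold in any setting. With RLE size factors the median of all genes moved by -0.002, 0.007 and 0.009 in the 3 comparisons. The number of the 10 genes called in shGLO1#1, 1, was 2 without the count filter (GRHL2 added) and ranged from 1 to 2 when a library was left out, with 2 without shGLO1#1 replicate 2. The replicate block changed no call of the 10 genes, and with it PRRX1 in shGLO1#1 had 0.86 (adjusted p = 0.0294). Called epithelial transcription factors in shGLO1#1, 1, were 2 with the replicate block, 2 without the filter and 0 with a mean of at least 1 CPM, and ranged from 0 (without shGLO1#1 replicate 2) to 1 when a library was left out; in shGLO1#2, 4 became 2 with a mean of at least 1 CPM. When a library was left out, called other EMT factors in shGLO1#2 ranged from 1 to 2 (2 without shNT replicate 2), corepressors in shGLO1#1 from 0 to 1 and upstream inputs there from 1 to 2 (both at the upper value without shNT replicate 3), and antisense neighbours there from 0 to 1 (1 without shNT replicate 2, shNT replicate 3 or shGLO1#1 replicate 1). The cause of these moves was not tested. Depth limits SNAI1, GRHL2, TWIST1 and TWIST2.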
